A study of Caenorhabditis elegans with 2 samples.

Results

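cdc-48.1 and cdc-48.2 are the paralogous Caenorhabditis elegans genes for CDC-48, the worm counterpart of the AAA ATPase known as p97 or VCP in mammals. They are 2 of 46890 annotated genes on the nuclear chromosomes, of which 19973 are protein coding. The pair was chosen by its values in these data: the promoter of cdc-48.1 carries one of the strongest peaks of the experiment, and its close paralogue does not. The ranks and signal values of these genes, and the contrast between them, are therefore given as a description with no test. The genes were found by their Ensembl symbols, and each peak summit within 5 kb of either gene was taken from every deposited list.

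Chromatin immunoprecipitation followed by sequencing (ChIP-seq) had been carried out on whole worms, males and females pooled, at the L3 larval stage and of unknown age. All were of strain OP353, which carries the unc-119(tm4063) mutation on chromosome III and the integrated transgene wgIs353 with eGFP-tagged nhr-77. NHR-77 is a nuclear hormone receptor, one of a large family of ligand-regulated transcription factors in this species. The antibody label names nhr-77, so whether the tag or the receptor itself was the antigen is not settled here, and the labels do not name the promoter that drives the transgene. The 2 samples are biological replicates of 1 group with no second condition, so every comparison is between places in the genome. A whole-worm signal is a mixture over all tissues, and the tissue of a peak cannot be told.

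CDC-48 forms a ring of subunits that uses ATP to unfold ubiquitin-tagged proteins and to pull them out of membranes, chromatin or complexes. With the UFD-1 and NPL-4 cofactors it draws misfolded proteins out of the endoplasmic reticulum for destruction by the proteasome. In C. elegans the paralogues are known to act redundantly in the embryo. The annotated proteins were 809 residues for cdc-48.1 and 810 for cdc-48.2, and 720 of 802 aligned residues were identical (89.8%). Their coding sequences were 78.6% identical over 2393 aligned bases, and the longest run of bases they shared was 35. A more distant relative, cdc-48.3, of the AFG2 branch of these ATPases, has 724 residues and was 35.7% identical to cdc-48.1 and 34.7% identical to cdc-48.2. By aligned coding bases it was still 71.3% identical to cdc-48.1 and 70.3% to cdc-48.2, so the 78.6% is best read beside these.

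Both genes lie on chromosome II. On ce11, which has the sequence of the WBcel235 annotation, cdc-48.1 (WBGene00007352) spans 10560036 to 10563407 on the minus strand, and cdc-48.2 (WBGene00008053) spans 8138496 to 8141230 on the plus strand. Each has 1 annotated transcript with 5 exons. The 300 bases before each annotated 5′ end are given first, since the strongest peak of the pair lies wholly within this stretch at cdc-48.1. Both are written 5′ to 3′ on the strand of the gene, and capitals mark the matches to TATAAA and TGACGT on either strand. The first stretch is chrII:10563408-10563707 on the minus strand, and the second is chrII:8138196-8138495 on the plus strand.
cdc-48.1 upstream: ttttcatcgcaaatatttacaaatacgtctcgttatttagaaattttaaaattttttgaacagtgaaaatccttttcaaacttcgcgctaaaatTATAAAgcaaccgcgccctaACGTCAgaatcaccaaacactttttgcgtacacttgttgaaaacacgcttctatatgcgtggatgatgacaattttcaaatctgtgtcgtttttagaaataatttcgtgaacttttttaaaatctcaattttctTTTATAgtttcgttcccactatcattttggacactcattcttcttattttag
cdc-48.2 upstream: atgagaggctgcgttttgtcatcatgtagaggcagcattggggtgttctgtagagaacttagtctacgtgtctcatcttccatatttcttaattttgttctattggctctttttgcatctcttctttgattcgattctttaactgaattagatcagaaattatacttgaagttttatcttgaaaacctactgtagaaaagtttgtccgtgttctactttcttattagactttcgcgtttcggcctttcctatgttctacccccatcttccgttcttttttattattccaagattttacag
The longest run of bases shared by these stretches was 10, on the strand of the genes. So the proteins are much alike by alignment, while the upstream stretches were compared only by this run and were not aligned. Both stretches end in ag, the bases that end an intron, and many worm transcripts start at a splice acceptor onto which a leader RNA is joined. Whether either gene does so was not examined, and all distances below are to the annotated 5′ end.

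The peak at the cdc-48.1 promoter lay from 10563446 to 10563702 on chromosome II, 39 to 295 bp upstream of the gene, in intergenic sequence. Its signal value, the authors' measure of enrichment as their peak caller wrote it, was 235 in the list called on the pool of both replicates, where it ranked 14 of 30000 entries by signal. The same entry, with the same value and rank, stood in the shorter list of 590 peaks that the authors cut by the irreproducible discovery rate (IDR), which weighs the agreement of replicate rankings. In replicate 1 the signal was 105 and the rank 16 of 30000, and in replicate 2 the signal was 128 and the rank 11 of 30000. The peak was thus near the top of each list. Over the replicates the rank averaged 13.5 ± 3.54 (SD, n = 2). The scale of the signal differs between lists, so each value is best read against its own list. The signal was 28.4 times the median of the pooled list, 20.6 times that of replicate 1 and 26.9 times that of replicate 2. Over the replicates this multiple of the list median averaged 23.8 ± 4.45 (SD, n = 2). The last IDR peak, at rank 590, and the first entry below it, at rank 591, both had a pooled signal of 28.9.

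The peak was first among all autosomal peaks in the pooled list, in the IDR list and in replicate 2, and second in replicate 1. In all 8 deposited lists it was first on chromosome II. These lists are not separate results: the IDR lists are the strongest pooled entries, the pool holds both replicates, and each list has a version on another assembly. Only the replicates are separate measurements, and the gene was chosen by its rank. On ce10, an older assembly of the genome, the authors' lists gave it rank 14 in the pooled and IDR lists, with a signal of 235. There replicate 1 had a signal of 104 at rank 16, and replicate 2 had 128 at rank 12. The assembly therefore made no difference to its place beyond 1 rank in 1 replicate.

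**Figure D1:**
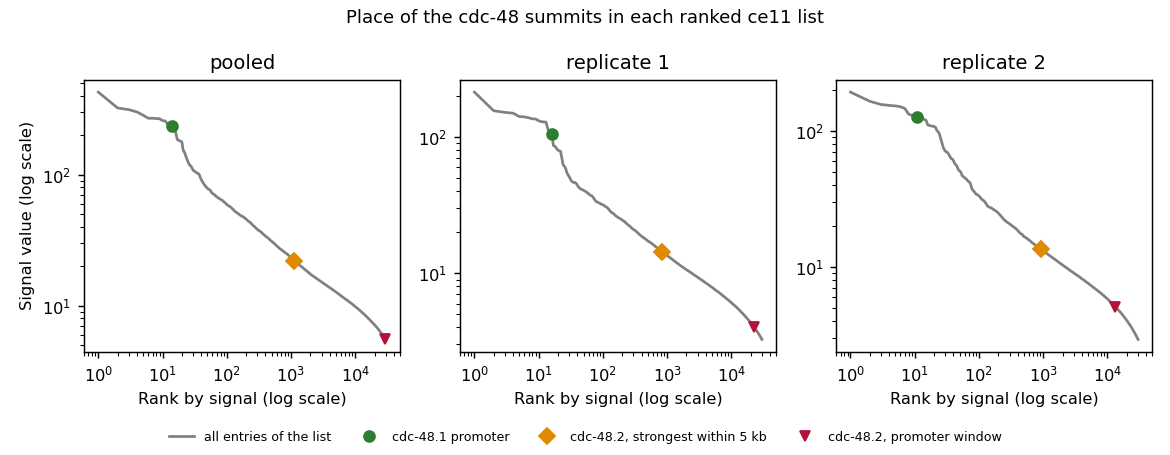
Signal value against rank, both on log scales, for the pooled list and each replicate on ce11; the grey line is every entry of the list. The cdc-48.1 promoter peak sits at rank 14, 16 and 11, the strongest summit within 5 kb of cdc-48.2 at rank 1131, 837 and 930, and the cdc-48.2 promoter-window summit at rank 29435, 22538 and 13297.

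The summit, the base of highest signal, lay 177 bp upstream of the 5′ end in the pooled list and in replicate 2, and 182 bp upstream in replicate 1. On ce10 the pooled peak, matched by its signal, was itself the point from which distances were set, so its distance there is the same by construction. The ce10 replicate summits, placed by their spacing from it, had the same distances as on ce11. The replicate summits were thus 5 bp apart. Of the 590 IDR peaks, 524 (88.8%) had a summit within 100 bp in both replicates. The median distance between their replicate summits was 32 bp, and 53 of them (10.1%) were at most 5 bp apart.

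The peak was also narrow. It was 257 bp wide in the pooled list, 207 bp in replicate 1 and 176 bp in replicate 2, where the commonest widths were 344, 320 and 270 bp. In the pooled list 47 of 30000 entries (0.157%) were narrower than 344 bp. All 47 could be found in the IDR list (7.97% of 590), and 16 of its 25 strongest peaks (64.0%) were that narrow. The peaks that ranked above cdc-48.1 were nevertheless all wider than its 257 bp, the narrowest being that near fbxb-58 at 314 bp.

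**Figure D2:**
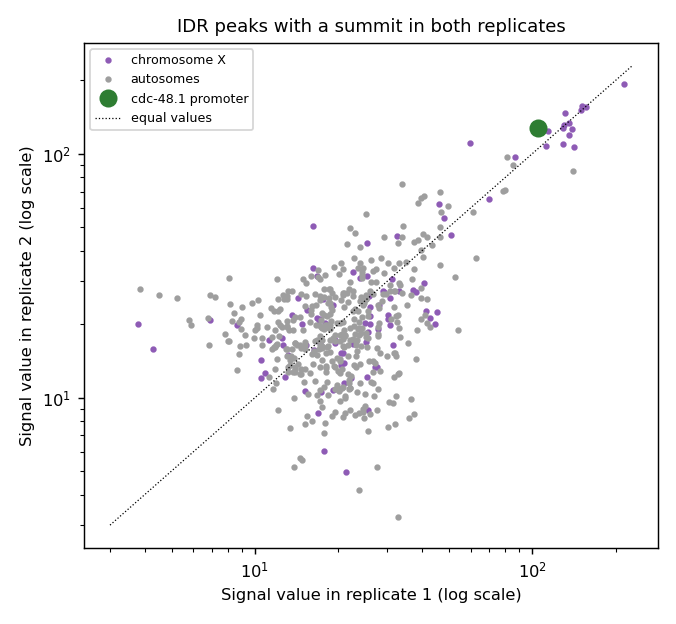
Signal value in replicate 1 (x axis) and replicate 2 (y axis), on log scales, of the 524 IDR peaks with a summit in both replicates; points are single peaks, purple on chromosome X and grey on autosomes, and the dotted line marks equal values. The cdc-48.1 promoter peak, at 105 and 128, lies among the strong X-linked peaks at the upper right.

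The peaks next to it in rank were mostly X-linked. The 3 above it in the pooled list had their nearest protein coding 5′ ends at fbxb-58, an F-box gene (signal 257), F19H6.5 (244) and F55G7.5 (239). The 3 below it were nearest to T27A8.7 (231), rpl-3, which encodes a ribosomal protein (212), and ins-39, an insulin-like peptide gene (185). Of these 6 only the rpl-3 peak was autosomal, on chromosome III. It was as narrow as the cdc-48.1 peak, at 256 bp, and lay 260 bp upstream of its gene. It ranked 6 in replicate 1 and 26 in replicate 2, a wider spread than ranks 16 and 11 for cdc-48.1.

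Likeness of rank over the pooled list and both replicates was measured as the largest absolute log2 ratio of a peak's rank to that of the cdc-48.1 peak over these 3 lists. By it, the 5 most like peaks were those nearest to F55G7.5 (0.24), fbxb-58 (0.35), F19H6.5 (0.63), C41A3.2 (0.70) and F22H10.2 (0.81). All 5 were on chromosome X. Their summits lay 1395, 1006, 1709, 15202 and 2576 bp from those 5′ ends, and the peak nearest to C41A3.2 was in coding sequence of pks-1, a polyketide synthase gene. So these 5 summits lay outside the promoter window of the gene named. By signal other peaks were as near, such as those of ins-39 and rpl-3 above, which lay within it. A promoter window here begins 1000 bp before an annotated 5′ end and stops 500 bp after it.

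Among protein coding genes with a summit in their promoter window, ranked by their strongest one, cdc-48.1 was number 2 of 9089 in the pooled list, number 3 of 9142 in replicate 1 and number 3 of 9139 in replicate 2. By the same measure cdc-48.2 was number 8964, 7551 and 5156. Of the 2 genes, 1 had an IDR summit in its window, which the choice of the pair fixed. Beside it, 500 of the 9089 coding genes with a pooled summit there had an IDR one (5.5%), as did 863 of 18626 genes of any kind (4.63%). When the 590 strongest entries of a single replicate were used in its place, the share of coding genes was 5% (457 of 9142) in replicate 1 and 5.06% (462 of 9139) in replicate 2, and cdc-48.1 but not cdc-48.2 was among them in both.

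cdc-48.2 had no IDR peak within 5 kb. Its own promoter window held 1 pooled summit, 903 bp upstream, with a signal of 5.60 at rank 29435, which is 0.677 of the list's median. In replicate 1 the window held a summit of 4.03 in coding sequence, 263 bp downstream of the 5′ end, and one of 3.51 that was 790 bp upstream. In replicate 2 it held a summit of 5.06, at rank 13297, that was 916 bp upstream. These values are close to or below what an ordinary entry of each list has: the higher was 0.795 of the median in replicate 1, and that of replicate 2 was 1.06 of the median. The upstream summits do not belong clearly to cdc-48.2. The pooled one lay 675 bp upstream of ctns-1, the divergent neighbour that encodes the lysosomal cystine transporter cystinosin, and so was nearer to that gene.

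Set against the promoter window of its paralogue, the cdc-48.1 signal was 42.0 times as high in the pooled list, 26.0 times in replicate 1 and 25.3 times in replicate 2. The replicate ratios rest on different places, a coding-sequence summit in replicate 1 and an upstream one in replicate 2, so no mean is given. Against the strongest summit anywhere within 5 kb of cdc-48.2, the cdc-48.1 signal was 10.6 times as high in the pooled list. It was 7.29 times as high in replicate 1 and 9.54 times in replicate 2. These replicate summits also lay at different places, so again no mean is given. The contrast ran the same way in both replicates and the pool. The pair was chosen by this contrast and the pool holds both replicates, so the agreement is description only.

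That strongest summit near cdc-48.2 was not at its promoter. In the pooled list it had a signal of 22.1 at rank 1131 and lay 3789 bp upstream, in the 3′ UTR of ulp-4, which encodes a SUMO protease. In replicate 1 it was 14.4 at rank 837, 3727 bp upstream in the 3′ UTR of ctns-1. In replicate 2 it was 13.4 at rank 930, 3925 bp upstream and in the 3′ UTR of ulp-4. These genes converge with 13 bp between their 3′ ends, so the summits surround a point where 2 transcripts finish. In each list the value was 2.67 to 2.83 times the median, well below that of the cdc-48.1 promoter.

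A second pooled summit in the 3′ UTR of ulp-4 had a signal of 12.7 and lay 4326 bp upstream of cdc-48.2, where replicate 1 had one of 11.3 at the same base and replicate 2 had one of 7.46 at 4399 bp upstream. On the other side of the gene, a pooled summit of 12.5 lay 6164 bp downstream of the 5′ end, in the 3′ UTR of rpl-10, a ribosomal protein gene. It was 102 bp upstream of F10B5.2. Inside cdc-48.2, the pooled list had summits in coding sequence of 10.04 at 825 bp and of 7.56 at 1828 bp from the 5′ end. Replicate 1 had 6.88 at 797 bp and 3.49 at 1828 bp, while replicate 2 had no summit within the gene. The coding-sequence summits were therefore found in 1 replicate of 2. The last pooled summit, of 8.97, lay 1985 bp upstream in coding sequence of ctns-1, where replicate 2 had one of 6.08 at 2000 bp.

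**Figure D3:**
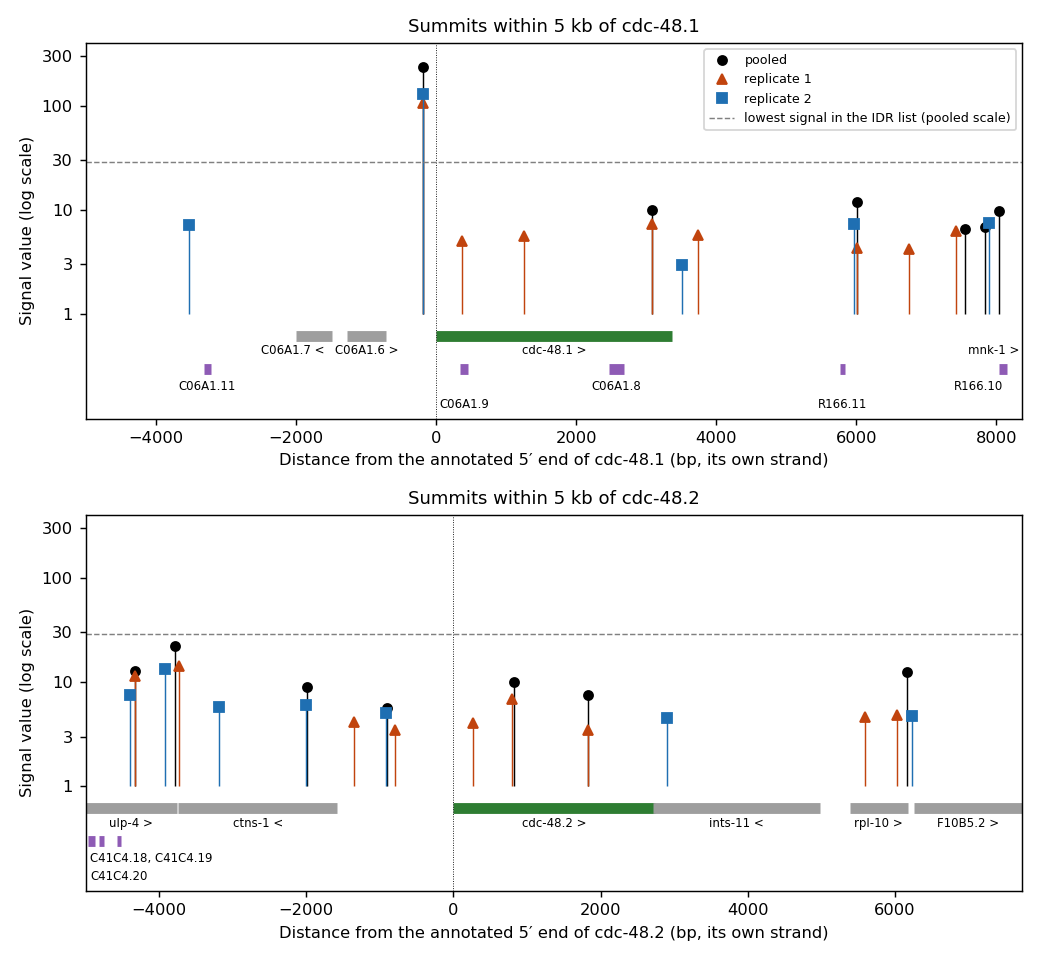
Signal value (log scale) of every ce11 summit within 5 kb of cdc-48.1 (upper panel) and cdc-48.2 (lower panel) against distance from the 5′ end in bp, with the member in green, other coding genes in grey, noncoding genes in purple, and > or < for the same or opposite strand. A single pooled summit, at the cdc-48.1 promoter, rises above the dashed line at 28.9, the lowest signal of the IDR list, and none near cdc-48.2 does. The line is on the pooled scale and does not apply to the replicate summits.

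Counted over the whole neighbourhood, the genes were alike. Within 5 kb of cdc-48.1 there were 6 pooled summits, 8 in replicate 1, 5 in replicate 2 and 1 in the IDR list. Within 5 kb of cdc-48.2 there were 7, 9, 7 and 0. Among 5715 coding genes of 2000 to 4000 bp, the median was 4 pooled summits, with quartiles of 2 and 6. Fewer pooled summits than at cdc-48.1 were found at 74.2% of them, and fewer than at cdc-48.2 at 83.3%. Any IDR summit was found at 7.84% of them. The relaxed lists have a fixed size and hold background, so these counts say little about a single gene, and the pair differed in the height of 1 summit rather than in the number of summits. The outermost pooled summit within 5 kb lay 4666 bp from cdc-48.1 (signal 9.84) and 4326 bp from cdc-48.2 (12.7). The first one beyond lay 5329 bp from cdc-48.1 (10.4) and 6444 bp from cdc-48.2 (7.04).

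The other summits near cdc-48.1 were weak. The next strongest within 5 kb had a signal of 12.0 in the pooled list, 7.37 in replicate 1 and 7.45 in replicate 2. The promoter peak was 19.6, 14.2 and 17.2 times as high as these. The pooled summit of 12.0 lay 6012 bp downstream of the 5′ end, past the 3′ end of the gene and near R166.11, a noncoding RNA gene. Replicate 1 had 4.32 at 6010 bp and replicate 2 had 7.35 at 5974 bp, so this place recurred. A pooled summit of 10.02 in the 3′ UTR of cdc-48.1, 3087 bp from the 5′ end, had a counterpart of 7.37 at the same base in replicate 1 and none in replicate 2. The remaining pooled summits, of 6.60, 6.85 and 9.84, lay farther downstream, the last in the snoRNA gene R166.10. The kinase gene mnk-1 reaches into the 5 kb window beyond it.

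Upstream of cdc-48.1 the promoter peak had little company. The nearest gene on that side, C06A1.6, lies on the same strand and ends 704 bp before cdc-48.1 begins. The peak summit was 528 bp from its 3′ end and 1094 bp from its 5′ end. C06A1.7, on the opposite strand, and the noncoding gene C06A1.11 lie farther out. On ce11 no other summit was listed on that side within 5 kb, except 1 in replicate 2 with a signal of 7.20, 3524 bp upstream. In contrast to cdc-48.2, then, cdc-48.1 had its strong summit in a gap with no divergent gene start at its edge.

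The paralogues differed in what their introns hold. cdc-48.1 has introns of 278, 46, 255 and 49 bp, and the 2 long ones each enclose a snoRNA gene on the same strand. Small nucleolar RNAs guide the chemical modification of other RNAs, and many are cut out of introns of host genes. C06A1.9 (113 bp) lies in intron 1 and C06A1.8 (218 bp) in intron 3. cdc-48.2 has introns of 48, 46, 52 and 59 bp, and no annotated gene lies in them. Both snoRNA genes are shown, as they are the hosted genes and the promoter peak is shared with one of them. They are written 5′ to 3′ on the minus strand, C06A1.9 from chrII:10562952-10563064 and C06A1.8 from chrII:10560717-10560934.
C06A1.9: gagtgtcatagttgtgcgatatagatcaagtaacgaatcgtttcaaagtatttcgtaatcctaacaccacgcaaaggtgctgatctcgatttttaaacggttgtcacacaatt
C06A1.8: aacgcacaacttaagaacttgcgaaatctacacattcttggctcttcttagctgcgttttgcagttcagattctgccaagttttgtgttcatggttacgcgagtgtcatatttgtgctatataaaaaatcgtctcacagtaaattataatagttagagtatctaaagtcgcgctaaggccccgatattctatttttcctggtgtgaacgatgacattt

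The promoter peak lay in the promoter windows of 2 genes, cdc-48.1 and C06A1.9. Its summit was 177 bp upstream of the annotated 5′ end of cdc-48.1, 520 bp upstream of that of C06A1.9 and 2650 bp upstream of that of C06A1.8. It was thus nearest to the host gene. Within the snoRNA genes themselves, a single summit was listed, in replicate 1, where one of 5.04 at rank 15226 fell inside C06A1.9. The pooled list and replicate 2 had none in either. Across the genome, 159 coding genes hold a snoRNA gene on their strand. Of those with a pooled summit in their promoter window, 21 had an IDR one (17.4%), beside 5.5% of coding genes. No test was made of that share, which includes cdc-48.1.

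The promoter peak lies in intergenic sequence, outside the coding sequence in which the paralogues were compared. How reads were mapped was not examined. The peak sequence had 1 full-length copy in the genome, and its longest other match was 73 bp at 72.6% identity. GC content within 100 bp of the summit was 33.8%, beside a median of 42.3% over IDR peaks and 35.3% over the other pooled entries. Only 10.8% of IDR peaks were lower. The promoter of cdc-48.1, from 250 bp upstream to 50 bp downstream, had 34.0% GC and that of cdc-48.2 had 36.0%, both near the median of 34.3% over coding genes.

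Of 6 motifs searched on both strands in these promoters, the cdc-48.1 promoter held TATAAA, the TATA-box core, at 2 places, and TGACGT, a core bound by bZIP factors, at 1. One TATAAA lay on the strand of the gene from 206 to 201 bp upstream, and the other lay on the opposite strand from 52 to 47 bp upstream. TGACGT lay on the opposite strand, from 186 to 181 bp upstream, so it reads ACGTCA in the stretch printed above. The replicate 1 summit fell inside this match, and the pooled summit a few bases beyond it. The cdc-48.2 promoter held neither. Over all coding promoters of the same length, 37.9% held TATAAA and 10.3% held TGACGT, so both are common. Within 100 bp of summits, TGACGT was in 7.63% of IDR peaks and 6.52% of other pooled entries, and TATAAA was in 16.6% and 21.4%.

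AGGTCA, the core site of many nuclear receptors, was in neither cdc-48 promoter, nor within 100 bp of the cdc-48.1 summit. It was in 8.27% of promoters, 5.42% of IDR peaks and 4.96% of other pooled entries. CACGTG (5.82% of promoters) and GAANNTTC (18.5%) were also in neither promoter and not near the summit. GAGAGA, in 21.8% of promoters, was found 1 time in the cdc-48.2 promoter and not in that of cdc-48.1. It was in 32.9% of IDR peaks and 13.5% of other pooled entries, so the cdc-48.1 peak lacked the motif, of these 6, that was commonest in IDR peaks. A match here is only a run of letters, and the motifs do not overlap each other in the stretch shown.

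Genes related to CDC-48 by function or by protein family were then taken from 4 lists: cofactors and adaptors, degradation from the endoplasmic reticulum, other AAA and AAA+ ATPases, and ubiquitin with its activation. The list for the endoplasmic reticulum also holds chaperone and unfolded protein response genes. Of 75 names, 72 had a gene of that symbol and 52 had a pooled summit in the promoter window. An IDR summit was found for 4 of the 52 (7.69%), beside 5.5% of coding genes, which is near the background. The median of their strongest pooled signal was 14.4, beside 9.54 over all coding genes with a summit. All 4 were far weaker than cdc-48.1.

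None of the 12 cofactor and adaptor genes with a pooled summit had an IDR one, which is little to go on beside a share of 5.5% over all coding genes. Their median signal was 11.1. The highest were ubxn-3 at 25.9 and ubxn-2 at 25.7, which encode UBX-domain adaptors of CDC-48. The ubxn-3 value rested on replicate 1, with 21.1 there and 3.24 in replicate 2. The ubiquitin-chain extending ligase gene ufd-2 had 18.9, ufd-3 had 16.9 and ufd-1, the substrate-binding cofactor gene, had 10.1. No pooled summit was listed in the windows of npl-4.1, npl-4.2, png-1 or chn-1.

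Of 11 genes of the endoplasmic reticulum list with a pooled summit, 2 had an IDR one (18.2%), beside 5.5% of coding genes. This difference rests on these 2 genes and was not tested. The list is broader than degradation itself, as hsp-3 and xbp-1 below show. The other genes of the list with a pooled summit, sel-11, marc-6, cup-2, rnf-121 and rnf-5 among them, had no IDR one. hsp-3, which encodes a chaperone of the BiP family, had a pooled signal of 41.6, with 26.1 in replicate 1 and 20.1 in replicate 2, and its summit lay 67 bp upstream. uggt-1, whose product marks misfolded glycoproteins by adding glucose, had 36.7, with 25.4 in replicate 1 and 12.2 in replicate 2, at 157 bp upstream. Both are X-linked. xbp-1, a transcription factor gene of the unfolded protein response, had a promoter-window summit just under the IDR list, with 27.7 at rank 652. Outside that window, an IDR peak of 37.3 (18.6 in replicate 1 and 22.1 in replicate 2) stood in intergenic sequence past the 3′ end of xbp-1. Its summit lay 1702 bp downstream of the 5′ end. This peak was not counted for the list. The other list genes are given here by their promoter windows only, so xbp-1 cannot be compared with them by it. Any IDR summit within 5 kb was found at 7.84% of the coding genes compared by length above.

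Of 19 other AAA and AAA+ ATPase genes with a pooled summit, none had an IDR one, beside 5.5% of coding genes, and the median was 13.9. Since cdc-48.1 was chosen as the second of 9089 coding genes by promoter signal, a weaker signal at the listed genes was nearly fixed by that choice. cdc-48.3 had no summit in its promoter window in the pooled list or in either replicate. The highest were atad-3, a mitochondrial ATPase gene, at 28.1 (rank 629), the proteasome ATPase gene rpt-2 at 27.1 (rank 679) and the mitochondrial protease gene ymel-1 at 26.9 (rank 695). The atad-3 summit was also in the window of nrde-2, and the rpt-2 summit in those of F29G9.10 and aps-1. rpt-2 had 14.7 in replicate 1 and 7.78 in replicate 2. Among the other proteasome ATPases, rpt-1 had 17.2, rpt-6 had 12.8 and rpt-4 had 10.6, while rpt-3 and rpt-5 had no pooled summit. The rpt-4 summit was also in the window of nfyc-1.

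Of 10 ubiquitin genes with a pooled summit, 2 had an IDR one (20%), beside 5.5% of coding genes, and only ubl-1 of them also had the nearest 5′ end. ubl-1, which encodes a ubiquitin-like protein fused to a ribosomal protein, had a pooled signal of 39.6, with 18.2 in replicate 1 and 19.9 in replicate 2. let-70, a ubiquitin-conjugating enzyme gene, had 31.1, with 20.7 in replicate 1 and 11.1 in replicate 2. The ubl-1 summit, 199 bp upstream, was also in the windows of H06I04.8 and H06I04.9. The let-70 summit, 774 bp upstream, was also in those of klc-1 and M7.15. Taken over the 590 strongest entries of each replicate, 6 of the 72 list genes had a summit in replicate 1 and 5 in replicate 2, with 2, hsp-3 and ubl-1, in both. Over all 19973 coding genes, 457 had one in replicate 1 and 462 in replicate 2. The shares of 5% and 5.06% given above are only over coding genes with a summit of that list. The 72 include genes with none, and no test was made.

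**Figure D4:**
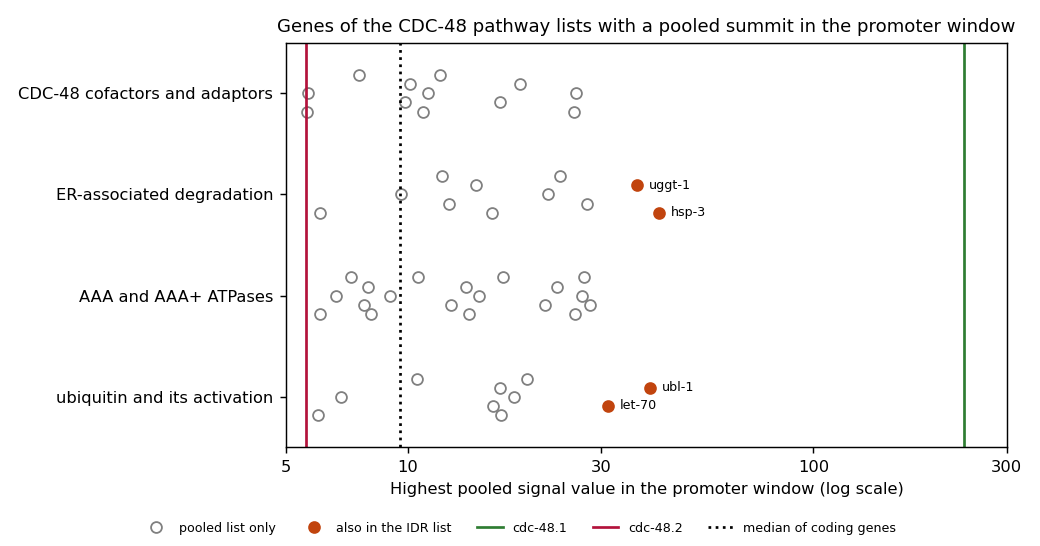
Strongest pooled signal value in the promoter window (log scale) of the 52 list genes with a pooled summit, in 4 rows by list; each circle is a gene, filled where the summit is in the IDR list, and vertical position within a row has no meaning. The green line marks cdc-48.1 (235), the red line cdc-48.2 (5.60) and the dotted line the median of coding genes (9.54); no list gene exceeds 41.6.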

How the data were processed

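The authors, per the labels and deposited inventory texts, called relaxed peak lists on each replicate and on both pooled, each against a control, and derived the IDR list from them. The deposited narrowPeak lists hold the authors' signal value and the −log10 of the q-value. Not given in the sources used here are the aligner, the peak caller, any version and the threshold of the IDR step. Read depth is unknown, so no interval was computed. Entries were ranked by signal within each list. The q-value was tied at its maximum for 1428 pooled entries and was not used to rank. All IDR peaks were checked to be the strongest pooled entries. Genes were from Ensembl release 115. The ce10 entries were matched to ce11 by signal and order, and no coordinate was converted. Summits within 100 bp counted as 1 place. Proteins and coding sequences, translated from the ce11 sequence and annotation, were aligned with Biopython 1.88, and copies of the peak were sought with BLAST+ 2.17.0 (Python 3.11.15, pandas 2.3.3, numpy 2.4.6). The counting steps were tested on simulated data. The genes named were the pair, their neighbours within 5 kb, the 3 IDR peaks on either side in rank, the 5 most alike, the list genes with an IDR summit, and cdc-48.3; other list genes were named after their values were seen. The pair and the gene lists were chosen with earlier results of these data known.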

Additional observations from a re-analysis of the deposited data

How the results depend on the processing

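No paired analysis was possible because all samples belong to 1 group. The rank of the cdc-48.1 peak was 14 on both assemblies and with 50 or 200 bp as the matching distance, and 11 to 16 with 1 replicate left out. The strongest summit near cdc-48.2 kept rank 1131 on ce10 and ranked 1126 with 200 bp, and 837 to 930 with 1 replicate left out, where it was also another place in the same pair of 3′ ends. The distance of the cdc-48.1 summit was -182 to -177 bp with 1 replicate left out. Summit counts followed the window and list length by construction: near cdc-48.1 they were 6 within 5 kb, 2 within 2 kb, 16 within 10 kb, 3 among the 10000 strongest entries and 1 among the 3000 strongest, and near cdc-48.2 they were 7, 4, 14, 4 and 1. With 1 replicate left out they were 5 to 8 and 7 to 9. The count of pathway genes with a reproducible summit was 4, and was 3 with 500 bp on either side or with the nearest 5′ end only. With 1 replicate left out, the 590 strongest entries of the other replicate were used in place of the IDR list. The count was then 5 to 6, which does not measure reproducibility, and 2 genes were counted in both replicates. Ranking by the q-value was not run, since it was tied. Read depth, input coverage and copy number of the transgene were not analysed here, and 2 replicates give only a rough spread.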
